A study of Mus musculus with 4 samples.

Results

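Fcgbp and Clca3a2 are 2 of the 328 genes that an in situ transcript panel measured in mouse skin and cheek, and they were chosen on their levels across kinds of cell in these data, being high in the basal cells of skin and low in those of buccal mucosa. That pattern is therefore described below without a test. Transcripts were counted in place in 5 µm sections on 4 slides, which held male unwounded dorsal skin, female unwounded dorsal skin, buccal mucosa of Control mice of both sexes, and male dorsal skin 4 days after full-thickness wounding. All skin came from TRE-Pitx1/Krt5-rtTA mice, in which the Krt5 promoter, active in basal cells of stratified epithelium, drives the activator rtTA, and doxycycline lets rtTA switch on the homeodomain factor Pitx1. Control littermates ate normal chow, which the labels call Vehicle, and PITX1+ mice ate doxycycline chow from the telogen phase of the hair cycle.

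The labels give the tissue of each slide and not the condition of each section, so the 7 unwounded skin sections were taken as Control or PITX1+ from their order on the slide, and their numbers of cells were then matched to those the study lists for each condition (each within 0.493% of a section of the same condition and at least 9.08% from any other). This gave Control 1 and 2 and matched PITX1+ 1 and 2 on the female slide, and Control 3 and matched PITX1+ 3 and 4 on the male slide. The buccal slide had 7 sections, of which 1 (Buccal 3) held no basal-like cell, and the wound slide had 3 sections. The first of these in the same order was taken as the Control wound and the other 2 as PITX1+ wounds by that order, and whether they share an animal is not given. For wounds, cell numbers are listed by condition and not by section, so they were not matched. In basal-like cells Pitx1 stood at 82, 59 and 0 CPM (transcripts of the gene per 1000000 transcripts of the panel in the same cells) in Control sections, at 38 and 100 CPM in the matched PITX1+ sections of the female slide, and at 1684 and 1030 CPM in those of the male slide. Pitx1 thus overlapped Control in the female sections matched to PITX1+ skin, and every direction drawn from those sections rests on the match alone. Slide cannot be told apart from sex, buccal tissue lies on a slide of its own, and p-values measure the spread between sections.

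Fcgbp encodes a large secreted protein of mucus that is built of repeated von Willebrand factor D domains and is named for binding the Fc part of IgG, and it is best known from goblet cells and glands. Clca3a2 belongs to the calcium-activated chloride channel regulators, a family of secreted or membrane-attached proteins of epithelia. Its close paralogue and neighbour Clca3a1, which is known from lymphatic vessels, was not on the panel, and whether its transcripts were read as Clca3a2 was not tested. Basal keratinocytes sit on the basement membrane, divide, and send daughters outward into the suprabasal layers, where they cornify, and the buccal epithelium is built in the same way but carries no hair follicles.

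The bases just before the start of Fcgbp are shown to place the gene (RefSeq, GRCm38.p6). Fcgbp starts at base 28071236 of chromosome 7 on the plus strand, and the 250 bases before it are chr7:28070986-28071235. Capitals mark the word TATATAA, which resembles a TATA box, and the sequence runs 5′ to 3′ on the gene's own strand:
Fcgbp: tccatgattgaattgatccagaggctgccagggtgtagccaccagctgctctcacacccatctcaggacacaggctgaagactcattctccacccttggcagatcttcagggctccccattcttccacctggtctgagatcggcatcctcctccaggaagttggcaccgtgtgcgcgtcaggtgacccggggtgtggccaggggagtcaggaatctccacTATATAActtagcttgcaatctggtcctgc
TATATAA stood 30 bases before the start of Fcgbp and is in 3.24% of the 32851 promoter windows of 300 bases. TAATCC, the word that PITX factors are known to bind, is in 7.06% of windows on either strand and not in that of Fcgbp. TGANTCA, the AP-1 word, is in 7.81% of windows and not in that of Fcgbp. A match is a description of letters, and its absence says only that the letters are not in this window.

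Cells were sorted into kinds by clustering on all panel genes except Fcgbp, Clca3a2 and Pitx1, so that neither member shaped the kinds it is described in. The basal-like cells comprised cluster 4, led by Col17a1, Krt15 and Dlk2 and found mainly in skin, cluster 5, led by Mt3, Col17a1 and Wnt16 and found in buccal mucosa, and cluster 15, led by Gstm5, Dsg2 and Cdh3. Cluster 15 made up 0.0733% to 2.34% of basal-like cells in Control skin, 27.0%, 32.1%, 77.3% and 38.8% in matched PITX1+ 1 to 4, and 23.7%, 73.7% and 71.3% in the Control and the 2 PITX1+ wounds. Sections held 136365 to 5581930 transcripts, and the basal-like cells numbered 1902, 1365 and 1110 in Control skin, 2455, 2426, 4922 and 2140 in matched PITX1+ skin, and 489 to 2059 in the 6 buccal sections that had any.

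In the basal-like cells of Control skin Fcgbp stood at 92509, 60496 and 24188 CPM in Control 1 to 3, so that up to 9.25% of all panel transcripts in these cells were Fcgbp. The sections matched to PITX1+ skin gave 39101 and 46356 CPM on the female slide and 1192 and 5765 CPM on the male slide. On each slide every matched PITX1+ section was below every Control section, while across slides the male Control section lay below both female PITX1+ sections. In the buccal sections basal-like cells held from 207 to 1025 CPM, with a median of 522 CPM, below every skin section. Counted per cell, Fcgbp came to 4.17, 2.25 and 0.670 transcripts in Control skin and 2.95, 4.18, 0.0845 and 0.471 in matched PITX1+ skin, and these ranges overlap within the female slide. The median basal-like cell held 38, 32 and 21 transcripts of all genes in Control skin and 69, 74, 57 and 67 in matched PITX1+ skin, and the part of this depth in the CPM was not tested.

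Clca3a2 in the same cells stood at 18385, 12608 and 10664 CPM in Control 1 to 3. The matched PITX1+ sections gave 9708, 6375, 782 and 4799 CPM, all 4 below the lowest Control section. Buccal basal-like cells gave at most 1 transcript of Clca3a2 a section, in Buccal 2 and Buccal 4, and none in the other 4. Over all Control sections together 2543 of 167161 transcripts in basal-like cells were Clca3a2, against 2 of 1044966 in buccal ones. Counted per cell, Clca3a2 came to 0.829, 0.468 and 0.295 transcripts in Control skin and 0.734, 0.575, 0.0555 and 0.392 in matched PITX1+ skin, where the female ranges overlap and Control 3 lies between the matched PITX1+ sections of its slide.

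**Figure D1:**
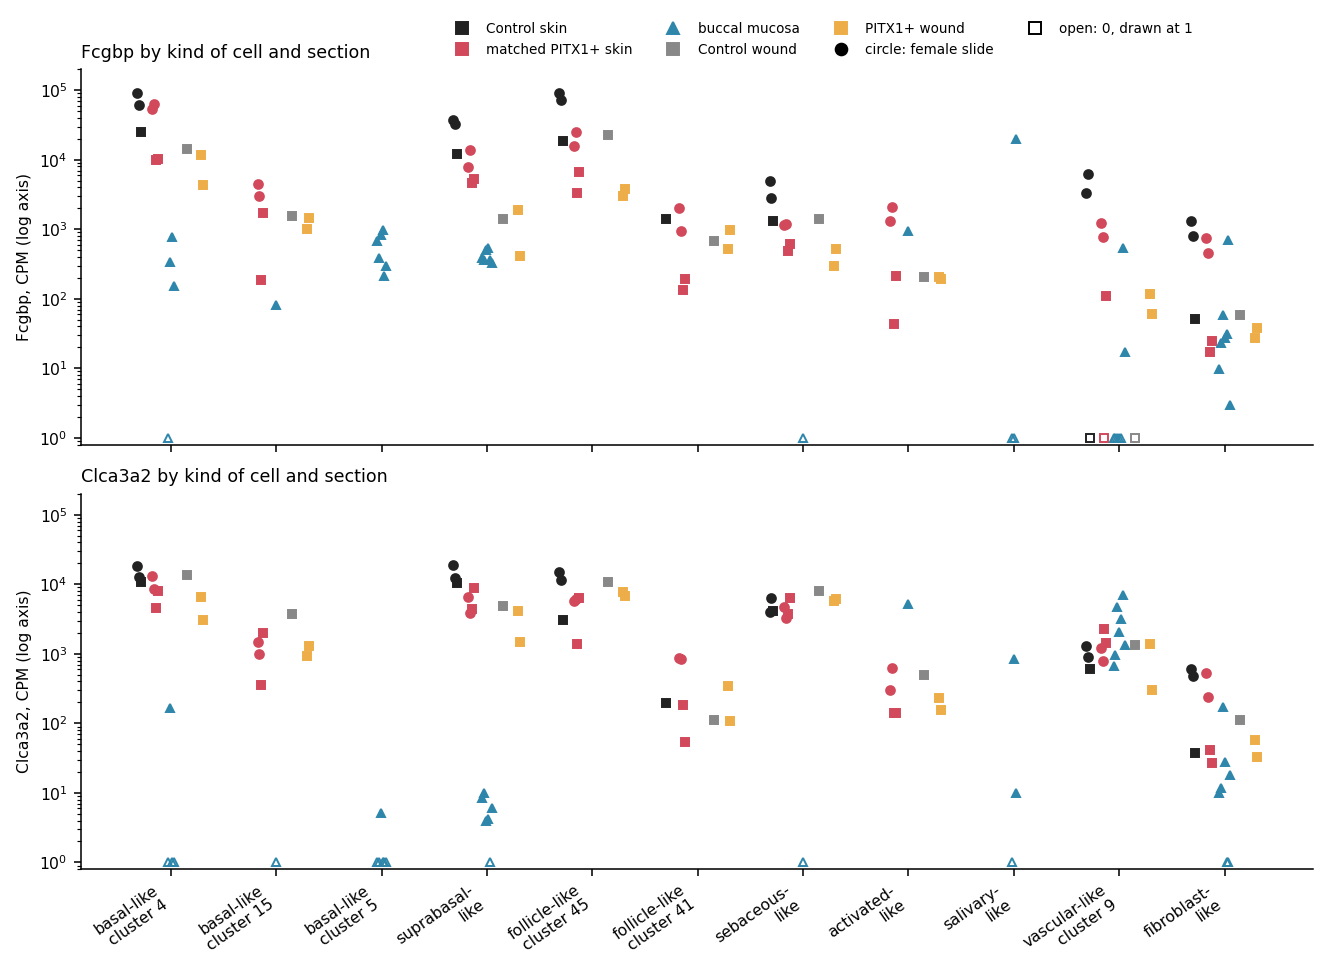
Level of each member by kind of cell and section, as CPM on a log axis, with 1 point a section of at least 50 cells of that kind (circles female slide, squares male slides, triangles buccal mucosa, open symbols 0 drawn at 1). In Control skin the basal-like, suprabasal-like and upper follicle cells (cluster 45) hold much of both members, Fcgbp is also high in the salivary-like cells of 1 buccal section, and buccal basal-like cells sit at 207 to 1025 CPM for Fcgbp and 0 to 6 CPM for Clca3a2.

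The share of cells with a transcript was compared at equal depth. With every cell thinned to 30 transcripts, Fcgbp was found in 82.6%, 71.1% and 46.2% of basal-like cells in Control 1 to 3, and in 45.6%, 46.5%, 2.50% and 15.7% in matched PITX1+ 1 to 4. Matched PITX1+ 2 was thus just above Control 3. Clca3a2 was found in 37.9%, 30.8% and 27.7% of the Control cells, and in 1.96% to 18.7% of the matched PITX1+ cells, with no overlap between the groups. Thinning left out the shallower cells, 663 of 1902, 618 of 1365 and 781 of 1110 in Control 1 to 3. In matched PITX1+ 1 to 4 it left out 351 of 2455, 272 of 2426, 1001 of 4922 and 305 of 2140. A larger part of every Control section was thus left out. Before thinning the shares for Fcgbp were 75.3%, 65.6% and 33.3% against 52.6%, 53.9%, 5.26% and 26.8%. Before thinning those for Clca3a2 were 41.5%, 28.4% and 16.0% against 32.8%, 28.6%, 3.66% and 20.4%, which overlap. In fibroblast-like cells, which should lack both genes and held a median of 31 to 79 transcripts in unwounded skin, the thinned shares were 0.0689% to 3.40% for Fcgbp and 0.155% to 2.05% for Clca3a2. The shares of matched PITX1+ 3 for Fcgbp (2.50%) and Clca3a2 (1.96%) were within those ranges over all skin sections, and above the 0.0689% and 0.155% of its own section. In cluster 4 of that section, without the cells of cluster 15, they were 17.7% and 11.5%. Cluster 4 shares for Fcgbp were 82.9%, 71.1% and 47.6% in Control 1 to 3, and 60.9%, 67.5% and 23.1% in matched PITX1+ 1, 2 and 4. Those for Clca3a2 were 28.3% to 37.9% in Control and 11.5% to 25.1% in matched PITX1+ skin. In buccal basal-like cells the thinned share was 0.225% to 2.58% for Fcgbp, which overlaps the whole basal-like class of matched PITX1+ 3, and 0 to 0.0526% for Clca3a2, beside 0 to 0.905% and 0 to 0.750% in buccal fibroblast-like cells. Buccal 6, at 0.225%, was below the fibroblast-like share of its own section for Fcgbp (0.905%).

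Cycling-like cells of Control skin, marked by genes of cell division, stood near the basal-like ones, at 87918, 62763 and 26819 CPM of Fcgbp and 14623, 10676 and 11714 CPM of Clca3a2 in Control 1 to 3, from 155, 57 and 91 cells. In matched PITX1+ skin they held 562 to 25062 CPM of Fcgbp and 500 to 8443 CPM of Clca3a2, below every Control section, and no test was made. In the other kinds of cell the members parted. Suprabasal-like cells of Control skin held Fcgbp at 37782, 32450 and 11938 CPM, below the basal-like cells of the same section in all 3 sections. Clca3a2 in those cells stood at 18810, 12309 and 10514 CPM, close to its basal-like levels, so it was not confined to basal cells. Of all Clca3a2 transcripts of a Control section, 57.7% to 61.4% lay in suprabasal-like cells and 20.1% to 25.9% in basal-like cells. The Fcgbp transcripts were divided more evenly, with 35.1% to 45.8% in suprabasal-like and 27.3% to 36.0% in basal-like cells. Follicle-like cells held 15.8% to 20.3% of the Fcgbp and 3.31% to 10.6% of the Clca3a2 transcripts.

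Within the follicle-like cells the level differed between clusters. Cluster 45, with Krt79 and Ccl27a among its leading genes and so marked as upper follicle, held Fcgbp at 89881, 72174 and 18486 CPM in Control 1 to 3, near the basal-like levels of the first 2. Cluster 16, led by Wfdc3, Krt75 and Krt15, held 15236, 13087 and 4460 CPM. Cluster 41, led by the stem cell genes Lgr5 and Lhx2, had enough cells in Control 3 alone, at 1383 CPM. Cluster 18, led by Krt79 and Plet1, held 49070, 51087 and 16122 CPM, and cluster 20, led by Ptch1, Cntfr and Wnt6, held 25938 and 24498 CPM in Control 1 and 2. In every Control section cluster 45 was highest, followed by cluster 18, with cluster 16 below both. Clca3a2 ran likewise, at 14883, 11350 and 3111 CPM in cluster 45 against 2163, 1261 and 103 CPM in cluster 16.

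Sebaceous-like cells kept apart from the epidermis in how the members stood to each other. Fcgbp was at 4934, 2792 and 1302 CPM there in Control 1 to 3, and Clca3a2 at 3934, 6456 and 4106 CPM. The count of Fcgbp over that of Clca3a2 was 5.03, 4.80 and 2.27 in basal-like cells, 2.01, 2.64 and 1.14 in suprabasal-like cells, and 1.25, 0.432 and 0.317 in sebaceous-like cells of the same sections. This ratio fell from basal-like through suprabasal-like to sebaceous-like cells in all 7 unwounded skin sections and all 3 wounds. It compares kinds of cell and not the abundance of the genes, since each gene has its own probes.

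Cells outside the epithelium were counted with both members as well. Fibroblast-like cells held 1305, 792 and 52 CPM of Fcgbp and 610, 475 and 37 CPM of Clca3a2 in Control 1 to 3. Lymphoid-like cells of the same sections held 18691, 15772 and 15714 CPM of Fcgbp, and Krt5, the basal keratin, was counted in them at 11181, 11529 and 24286 CPM. Transcripts of keratinocytes were thus assigned to these cells too, and the part of that in their Fcgbp was not tested.

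In buccal mucosa Clca3a2 stood out in cells marked as lymphatic endothelium. In cluster 9, led by Mmrn1 and Lyve1, markers of lymphatic endothelium, Clca3a2 stood at 603 to 1298 CPM in Control skin from 1 to 5 transcripts a section, below the lymphoid-like cells of the same skin (3505 to 3629 CPM). In the buccal sections the same cluster held 672 to 7069 CPM, with a median of 2069, from 7 to 78 transcripts, while Fcgbp gave 0 to 2 transcripts there. Vascular-like cells, of which cluster 9 is a part, held 25.2% to 80.8% of all Clca3a2 transcripts of a buccal section. Suprabasal-like cells held 0 to 37.5% of them, and in Buccal 4 a further 56 transcripts lay in 77 activated-like cells (5235 CPM). The whole buccal slide had 498 Clca3a2 transcripts of sufficient quality, 58.2% of those decoded, against 83.9% on the female skin slide, and the control probes that match no gene gave 32.4 calls each on it.

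The comparison of matched PITX1+ with Control skin asked whether the levels in 1 kind of cell differed between the conditions. Only PITX1+ mice ate doxycycline, so the drug cannot be told apart from the Pitx1 it switches on. In basal-like cells the log2 fold change was −1.50 (SE 0.56) for Fcgbp and −1.19 (SE 0.51) for Clca3a2, with adjusted p-values of 0.110 and 0.147 by edgeR's quasi-likelihood test with slide as covariate and Benjamini-Hochberg adjustment over 323 genes. Neither member passed the threshold of 0.05, which 30 of the 323 genes (9.29%) did, 21 higher and 9 lower, although the unadjusted p-values were 0.0261 and 0.0454. Fcgbp did pass with DESeq2 (−1.57, adjusted p = 0.0497) and, in edgeR, with 30 clusters in place of 45 (−1.05, adjusted p = 0.0326). With DESeq2 more of all genes passed than in edgeR, and the number that passed with 30 clusters is not given here. In cluster 4 alone, which leaves out the cells of cluster 15, Fcgbp stood at 92721, 60511 and 25131 CPM in Control and at 53915, 63676, 9973 and 10376 CPM in matched PITX1+ skin. The difference there was −0.66 (SE 0.32, adjusted p = 0.224 by the same edgeR test) on the log2 scale, and for Clca3a2 −0.53 (SE 0.29, adjusted p = 0.269), where 7.85% of 293 genes passed. Leaving out Control 3, the lone male Control section, moved the basal-like change of Fcgbp to −0.57 and that of cluster 4 to 0.14.

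Cluster 15 held far less of both members than cluster 4 in the same section. Fcgbp stood at 4505, 2961, 185 and 1703 CPM in cluster 15 of matched PITX1+ 1 to 4, below the level of cluster 4 in each. Clca3a2 stood at 1478, 998, 351 and 2018 CPM against 13242, 8519, 4536 and 8039 CPM in cluster 4. Of its cells in these sections 616 of 662, 738 of 778, 3565 of 3805 and 767 of 831 lay within 15 µm of a follicle-like or gland-like cell. Its leading genes include Sox9 and Sostdc1, which also mark hair follicles. Cluster 4 was not free of this, since its leading genes include Krt15 and Sostdc1, which were markers of both kinds or of follicles. Of its cells 820 of 1790, 664 of 1642, 539 of 1106 and 492 of 1286 lay as near in the same sections. The share of cluster 15 moved with the condition, and the changes without the cells of cluster 15 are those given for cluster 4.

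In follicle-like cells both members were lower in matched PITX1+ skin. Fcgbp stood at 57102, 46301 and 8784 CPM in Control 1 to 3 and at 8533, 9523, 429 and 1021 CPM in matched PITX1+ 1 to 4. Within each slide every matched PITX1+ section was below every Control section. Fcgbp fell by 2.91 on the log2 scale (SE 0.39, adjusted p = 0.000468, quasi-likelihood test of edgeR, Benjamini-Hochberg adjusted) and Clca3a2 by 1.46 (SE 0.36, adjusted p = 0.0171), where 70 of 328 genes (21.3%) passed. Clca3a2 had stood at 9498, 6841 and 1085 CPM in Control and 2906, 2374, 268 and 584 CPM in matched PITX1+ skin. Without the slide as covariate neither call held (adjusted p = 0.197 and 0.309), and that for Clca3a2 was also lost without Control 1 (0.0549) or matched PITX1+ 2 (0.0811).

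The make-up of the follicle-like class differed between conditions as well, with cluster 16 at 725, 589 and 642 cells in Control and 53, 73, 340 and 648 in matched PITX1+ skin, and cluster 41 at 4991 and 2647 cells in matched PITX1+ 3 and 4. Cluster 18 came to 494 cells over all Control and 6019 over all matched PITX1+ sections, and cluster 20 to 232 and 12255. Within cluster 45 alone Fcgbp stood at 89881, 72174 and 18486 CPM in Control and at 15874, 24797, 3287 and 6743 CPM in matched PITX1+ skin. There it fell by 2.00 (SE 0.26, adjusted p = 0.00149 by the same edgeR test), where 14.2% of 240 genes passed. Clca3a2 changed by −0.69 in that cluster and did not pass (adjusted p = 0.343, 95% interval −1.76 to 0.38), but did when matched PITX1+ 4 was left out (−1.17, adjusted p = 0.00283). As single sections were left out, the genes called in cluster 45 ranged from 12 to 70, beside 34 with all sections.

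Suprabasal-like and sebaceous-like cells were compared in the same way. In suprabasal-like cells Fcgbp stood at 7838, 13670, 4638 and 5274 CPM in matched PITX1+ 1 to 4 and Clca3a2 at 6532, 3807, 4393 and 8981 CPM, which overlaps the range of neither member in Control skin except for Fcgbp in matched PITX1+ 2. The fitted changes were −0.78 (SE 0.45, adjusted p = 0.325) and −0.49 (SE 0.42, adjusted p = 0.495) by edgeR with Benjamini-Hochberg adjustment, and 2 of 309 genes (0.647%) passed in these cells, both higher, against 71 at an unadjusted p under 0.05. Different clusters hold this class in the groups. Of the Control cells 5433 were in cluster 11, led by Krt77, and 19 each in clusters 21 and 31, against 4056, 5330 and 3486 in matched PITX1+ skin. In cluster 11 Fcgbp stood at 37848, 32466 and 11958 CPM in Control 1 to 3 and at 19055, 4830 and 5438 CPM in matched PITX1+ 1, 3 and 4, and Clca3a2 at 18843, 12315 and 10300 CPM against 22038, 4540 and 9167 CPM. Fewer than 50 cells of matched PITX1+ 2 were in that cluster, and no fit was made within it. In sebaceous-like cells Fcgbp stood at 1133, 1176, 482 and 615 CPM in matched PITX1+ skin, all below the lowest Control section, and fell by 1.42 (SE 0.30, adjusted p = 0.0192), where 19 of 200 genes (9.5%) passed. That call was lost without Control 1 (0.0915), matched PITX1+ 1 (0.0744) or matched PITX1+ 2 (0.0798). Clca3a2 stood at 4712, 3313, 3706 and 6397 CPM there and changed by 0.03 (95% interval −0.65 to 0.71, adjusted p = 0.963), so a change of more than 0.71 in either direction lies outside the interval.

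Both slides held both conditions, so the slides were also compared. Fcgbp in basal-like cells was lower on the male slide by 2.56 on the log2 scale (SE 0.62, adjusted p = 0.0131, edgeR with Benjamini-Hochberg adjustment), where 110 of 323 genes (34.1%) passed, and by 2.05 in cluster 4 (SE 0.34, adjusted p = 0.00342), where 41.3% of 293 genes passed. The first of these calls was lost without matched PITX1+ 1 (0.0637) or matched PITX1+ 4 (0.0533). For Clca3a2 the slides differed by −0.89 (adjusted p = 0.217) and by −0.56 in cluster 4 (adjusted p = 0.145). Over a whole slide Fcgbp came to 96900 transcripts of sufficient quality on the female and 6955 on the male slide, and Clca3a2 to 31053 and 6877. All panel genes together came to 10412627 and 6288712 such transcripts, from 182402 and 91345 cells, so these counts also carry the size of the slide.

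The difference between conditions on the male slide exceeded that on the female slide by −2.14 on the log2 scale for Fcgbp and by −1.16 for Clca3a2 in basal-like cells (adjusted p = 0.297 and 0.588 for the interaction in edgeR), where 3 of 323 genes (0.929%) passed. In cluster 4 the interaction was −1.24 for Fcgbp (adjusted p = 0.0816, unadjusted 0.00639) and −0.56 for Clca3a2 (adjusted p = 0.565), where 5 of 293 genes (1.71%) passed. The interaction in basal-like cells moved to −1.46 for Fcgbp without matched PITX1+ 3, and to −3.52 for Fcgbp and −2.81 for Clca3a2 without matched PITX1+ 4. Each of these fits compares 1 male section with 1, so that the female sections alone give the spread and the male ones are assumed to vary like them. No call is therefore given for them. The male slide has 1 Control section, and without it the interaction could not be estimated.

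Buccal against Control basal-like cells is the contrast on which the members were chosen, so no call is given for them, and 67.8% of the 264 genes tested passed there. In suprabasal-like cells buccal sections held 326 to 537 CPM of Fcgbp, with a median of 373, and 0 to 10 CPM of Clca3a2, where 73.4% of 316 genes passed. Over all sections Clca3a2 made up 6540 of 433364 transcripts in Control and 28 of 4227806 in buccal suprabasal-like cells. Within the buccal epithelium Pitx1 stood at 722 to 1655 CPM in basal-like cells.

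Basal cell genes, most of them for anchorage to the basement membrane, were compared alongside. Of 11 on the panel (Krt5, Col17a1, Itga6, Itgb4, Itga3, Itgb1, Lama3, Lama5, Lamc1, Col7a1 and the transcription factor Trp63), none passed edgeR's test in the basal-like cells of matched PITX1+ skin, where 9.29% of all genes passed. All 11 entered the clustering, and all but Itgb1, Lama5 and Lamc1 were markers that named the basal-like class. Steady levels of these genes within that class are thus partly built in by the sorting of cells. Of these 11, 3 had an unadjusted p under 0.05 and DESeq2, which called 81 of all genes, called 3 (Itgb1 and Lama5 higher, Col17a1 lower), and their median change was 0.19 beside −0.08 over all genes tested. In follicle-like cells 3 passed as higher and 1 as lower (21.3% of all genes tested passed there), the largest being Lama5, a laminin chain, at 1.73 (adjusted p = 0.000915), and Col17a1, the hemidesmosome collagen that leads cluster 4, at −1.85 (adjusted p = 0.00126, edgeR with Benjamini-Hochberg adjustment). Within cluster 45 alone, where 14.2% of all genes passed, 1 passed as higher and 1 as lower. These were Lama5 at 0.95 (adjusted p = 0.0235) and Col17a1 at −1.13 (adjusted p = 0.0233) by the same edgeR test. In buccal basal-like cells 6 passed as higher and 2 as lower, where 67.8% of all genes passed, with Lama5 at 1.12 (adjusted p = 8.89e-05) and Col7a1, the anchoring fibril collagen, at −1.53 (adjusted p = 6.53e-05).

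Of 10 genes of mucosal or secretory epithelium, Slpi, a secreted inhibitor of leukocyte elastase, was the only one to pass in basal-like cells of matched PITX1+ skin (9.29% of all genes did), at 4.85 (SE 0.60, adjusted p = 0.00327, edgeR with Benjamini-Hochberg adjustment), while DESeq2 called Krt4 as well. In follicle-like cells Slpi was higher by 4.43 and Wfdc3 changed by −4.56 (adjusted p = 0.000468 for both), with no other gene of the list past the threshold, where 21.3% of all genes passed. Wfdc3 leads cluster 16, whose number of cells differed between the conditions. Within cluster 45 alone, where 14.2% of all genes passed, 8 of the list were tested. Slpi passed there at 3.31 (adjusted p = 0.0186) and Krt23 at −0.98 (adjusted p = 0.0382) by the same edgeR test, and no other did. In buccal basal-like cells, where 67.8% of all genes passed, 4 of 8 tested were higher, led by the oral keratin Krt4 at 9.07 (adjusted p = 3.84e-07), and Plet1 was lower, at −2.37 (adjusted p = 0.00742). In the basal-like cells of matched PITX1+ skin this list's median change was 0.39 (−0.08 over all genes), and in cluster 4 alone −0.46 (−0.20 over all genes). Slpi passed in cluster 4 as higher, at 2.81 (SE 0.67), and Krt23 as lower, at −1.54 (SE 0.36), with an adjusted p of 0.0410 for both in edgeR.

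The members also differed with the distance from the stroma, which is described without a test, since it reorders the cells on whose levels the members were chosen. Cells of the basal-like and suprabasal-like classes were ordered by the distance to the nearest stromal-like cell. Cells beside follicles were kept, so this distance is not depth in the epidermis alone. In Control 1, 1030 of the 1891 cells of cluster 4 lay within 15 µm of a follicle-like or gland-like cell. In Control 1 Fcgbp was at 78700 CPM between 10 and 15 µm and at 42724 CPM between 30 and 50 µm, in Control 2 at 58945 and 31596 CPM, and in Control 3 at 18636 and 15031 CPM. Clca3a2 stood at 18297 and 17736 CPM in Control 1 over the same distances, at 12991 and 12129 CPM in Control 2, and at 9798 and 11786 CPM in Control 3. Col17a1 fell outward from 46250 to 19931 CPM in Control 1, and Krt77, a suprabasal keratin, rose from 47352 to 119322 CPM. Between these distances Fcgbp was thus lower outward in all 3 Control sections, while Clca3a2 was slightly lower in Control 1 and 2 and higher in Control 3, where it had stood at 5560 CPM under 10 µm.

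**Figure D2:**
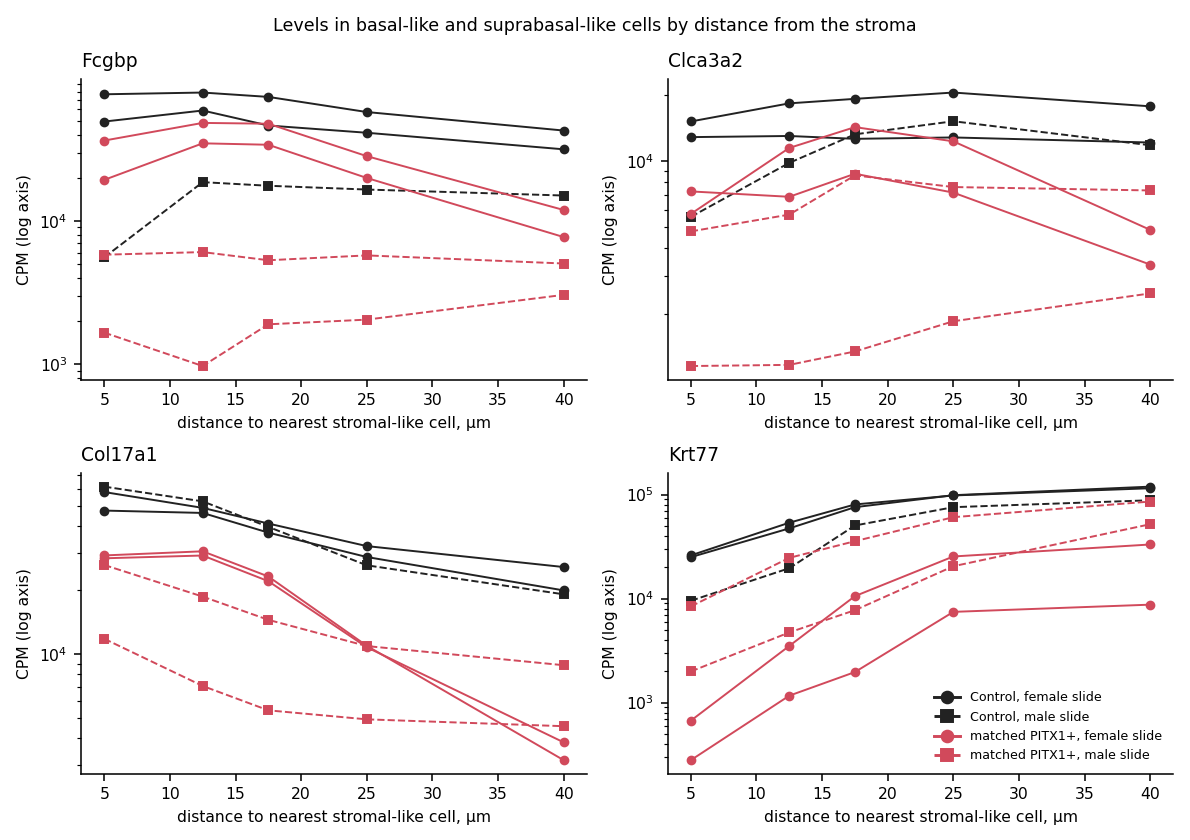
Levels of Fcgbp, Clca3a2, the basal gene Col17a1 and the suprabasal gene Krt77 in basal-like and suprabasal-like cells of the 7 unwounded skin sections, as CPM on a log axis against the distance to the nearest stromal-like cell in µm (points at the middle of each bin). Fcgbp falls outward in the female sections, from 78700 to 42724 CPM in Control 1 between the second and the last bin, and Clca3a2 stays between 15130 and 20496 CPM there.

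In the matched PITX1+ sections of the female slide both members were lower in the outer of these bins, Fcgbp from 34791 to 7710 CPM and from 48304 to 11916 CPM, and Clca3a2 from 11459 to 4849 CPM and from 6862 to 3368 CPM. On the male slide Fcgbp rose from 969 to 3044 CPM in matched PITX1+ 3 and stood at 6055 and 5039 CPM in matched PITX1+ 4. Clca3a2 rose there, from 1175 to 2489 CPM and from 5692 to 7334 CPM. Of the basal-like cells of matched PITX1+ 3, 77.3% were of cluster 15, whose part in the rises of that section was not tested. Between 10 to 15 µm and 30 to 50 µm Fcgbp was thus lower in the outer bin in 6 of the 7 sections and higher in matched PITX1+ 3. Set against the innermost bin, under 10 µm, it was lower in 5 of the 7, since Control 3 held 5560 CPM there, from 14 transcripts in 99 cells.

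Within cluster 4 of unwounded skin, levels differed with the distance to a follicle. In Control 1 Fcgbp stood at 76296 CPM within 15 µm of a follicle-like or gland-like cell and at 106941 CPM at 60 µm or more, in Control 2 at 47548 and 73002 CPM, and in Control 3 at 11641 and 39501 CPM. The matched PITX1+ sections gave 24927 against 73268, 44382 against 77563, 3465 against 17639 and 4918 against 14775 CPM. For Clca3a2 the levels within 15 µm and at 60 µm or more were 10546 and 24333 CPM in Control 1, 7179 and 18434 in Control 2, and 2944 and 19657 in Control 3. Both members were lower beside follicles in all 7 unwounded sections. In the wounds Fcgbp within 15 µm and at 60 µm or more was 11260 and 15290 CPM in the Control wound, 7911 and 12669 in PITX1+ wound 1, and 4337 and 4268 in PITX1+ wound 2, which showed no rise of Fcgbp. Clca3a2 was higher at 60 µm or more in every wound, at 4898 and 16742, 4963 and 7434, and 2478 and 3596 CPM in the same order.

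**Figure D3:**
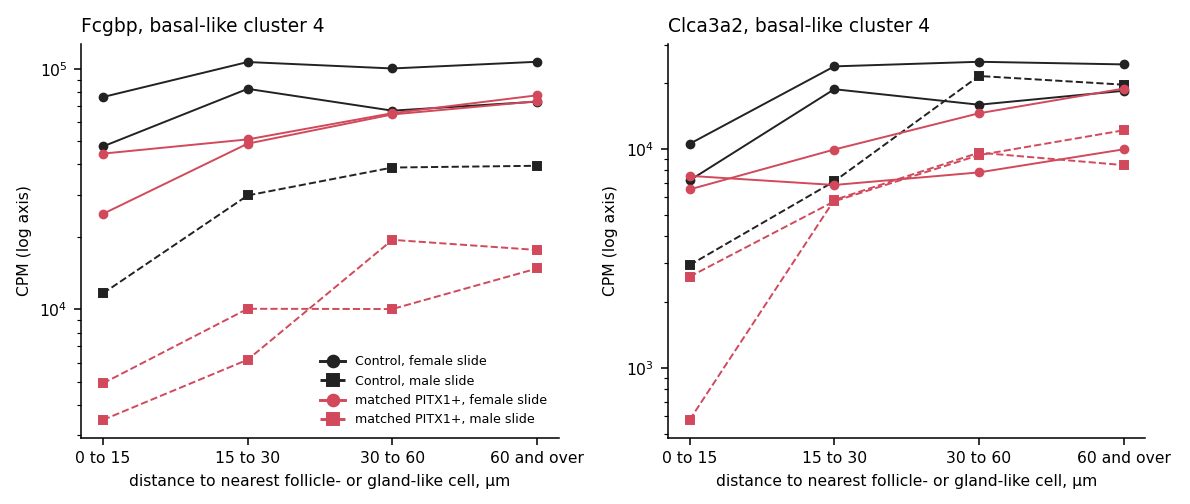
Level of each member in basal-like cluster 4 as CPM on a log axis, by the distance to the nearest follicle-like or gland-like cell in µm, in the 7 unwounded skin sections. Each line is higher at 60 µm or more than within 15 µm, for Fcgbp from 11641 to 39501 CPM in Control 3 and from 3465 to 17639 CPM in matched PITX1+ 3.

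At 60 µm or more from a follicle, Fcgbp in the female matched PITX1+ sections (73268 and 77563 CPM) lay between those of Control 2 and Control 1, so the female sections did not separate by condition there. On the male slide the matched PITX1+ sections (17639 and 14775 CPM) stayed below Control 3. Beside follicles, within 15 µm, matched PITX1+ 1 and 2 (24927 and 44382 CPM) were below Control 1 and Control 2. These cells are the same as those of the test above, and no further test was made.

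Within cluster 4 the same cells tended to hold both transcripts. Among its cells thinned to 30 transcripts, Clca3a2 was found in 32.8% to 40.7% of the cells with Fcgbp in the 3 Control sections, and in at most 25.9% of those without. In matched PITX1+ 1 to 4 the shares were 32.3%, 27.2%, 26.2% and 19.6% with Fcgbp against 13.8%, 9.54%, 8.31% and 15.2% without. The share was higher in cells with Fcgbp in all 7 sections. In upper follicle cluster 45 of Control 1 to 3 the shares were 34.0%, 29.1% and 8.57% with Fcgbp and 34.1%, 23.5% and 9.21% without, so 1 of the 3 had the higher share with Fcgbp. In matched PITX1+ 1 to 4 all 4 had, at 26.2%, 21.1%, 6.90% and 20% against 11.8%, 10.1%, 4.20% and 14.2%. Position relative to follicles moves with both members, and its part in this was not tested.

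**Figure D4:**
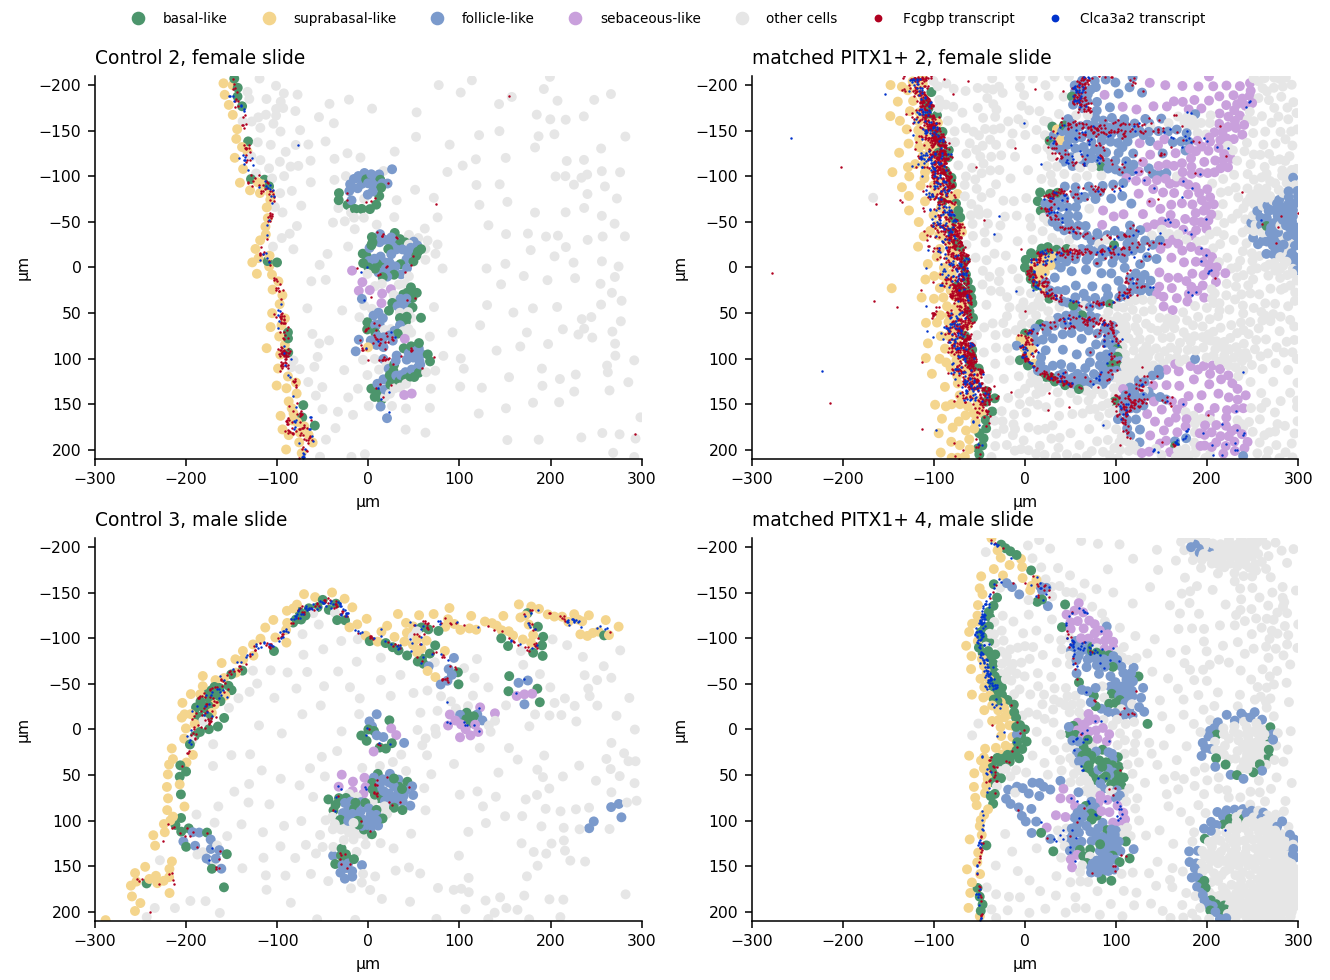
Cell centres coloured by kind and every Fcgbp and Clca3a2 transcript of sufficient quality in 1 window of a Control and a matched PITX1+ section on each skin slide (both axes in µm, to the same scale, epidermis at the left or top). Transcripts follow the epidermis and some follicle-like cells, whose clusters share 1 colour. There were 287 Fcgbp transcripts in the window of Control 2, 2356 in that of matched PITX1+ 2, 264 in that of Control 3 and 102 in that of matched PITX1+ 4. Windows hold different numbers of cells (525, 1563, 620 and 1236). Each was centred where cells of cluster 4 lie most densely, so the counts are not levels.

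The position of the transcripts within the cell was a further measure that the choice did not use. In basal-like cells 54.1%, 56.1% and 60.1% of Fcgbp transcripts lay over the nucleus in Control 1 to 3, and 51.0%, 50.4%, 53.4% and 53.7% in matched PITX1+ 1 to 4. The groups did not overlap, with means of 56.8% ± 3.05 (SD, n = 3) and 52.1% ± 1.65 (SD, n = 4) and a two-sided exact permutation p of 0.0571, the smallest that 3 sections against 4 can give. Clca3a2 transcripts lay over the nucleus in 65.5% ± 3.11 and 65.1% ± 2.14 of cases (exact permutation p = 0.914). Over all genes the shares were 57.2% ± 1.21 and 54.9% ± 2.00 (exact permutation p = 0.114).

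Within cluster 15 the cells could be divided by whether a Pitx1 transcript was counted in them. In matched PITX1+ 3 the cells with Pitx1 held Fcgbp at 52.5 CPM, from 3 transcripts, and the 3312 without at 215 CPM. In matched PITX1+ 4 the levels were 720 CPM with and 1966 CPM without, with exact 95% intervals of 394 to 1209 and 1657 to 2316 for counting error. In the PITX1+ wounds they were 756 and 1080 CPM, and 921 and 1514 CPM. Fcgbp was lower in the cells with Pitx1 in all 4 sections, with overlapping intervals in both wounds, and these cells were deeper, at a median of 102 against 65 transcripts in matched PITX1+ 3. Clca3a2 was lower with Pitx1 in 3 of the 4, the exception being PITX1+ wound 2, at 1638 against 1243 CPM with overlapping intervals. In buccal cluster 5 Fcgbp was higher in the cells with Pitx1 in 3 of 6 sections and lower in the other 3, with overlapping intervals in each.

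In the wounds there was 1 section taken as Control, so values are given with exact 95% intervals that cover counting error only, and no test was made. Basal-like cells held Fcgbp at 10550 CPM in the Control wound and at 2907 and 2030 CPM in the PITX1+ wounds. Clca3a2 stood at 10734, 1900 and 1612 CPM, and Pitx1 at 105, 1138 and 670 CPM, higher in both sections taken as PITX1+. In cluster 4 alone the levels of Fcgbp were 14080, 11676 and 4390 CPM. For Fcgbp PITX1+ wound 1 thus came near the Control wound once the cells of cluster 15 were left out. The count of Fcgbp over that of Clca3a2 in cluster 4 was 1.04, 1.76 and 1.45. Clca3a2 in both PITX1+ wounds thus stayed farther below the Control wound than Fcgbp did.

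Both members were low beside neutrophils, which gather at the wound. In the Control wound, basal-like cells within 25 µm of a neutrophil-like cell held Fcgbp at 1418 CPM (708 to 2537), those between 25 and 100 µm 3949 CPM (3326 to 4655), those between 100 and 400 µm 18340 CPM (16714 to 20081), and those farther away 26392 CPM (22706 to 30505). PITX1+ wound 1 gave 399, 2796 and 13358 CPM over the first 3 distances, and PITX1+ wound 2 gave 636, 2943 and 6214 CPM. Clca3a2 rose likewise, from 1676 to 26969 CPM in the Control wound, from 261 to 7223 CPM in PITX1+ wound 1 and from 453 to 5805 CPM in PITX1+ wound 2. The share of cluster 15 fell over the same distances, from 91.0% to 23.5% in PITX1+ wound 1 and from 80.0% to 31.1% in PITX1+ wound 2, and its part in the gradient was not tested. In the Control wound it was 23.5%, 33.4% and 20.4% over the first 3 distances, where Fcgbp rose, and 1.16% beyond.

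**Figure D5:**
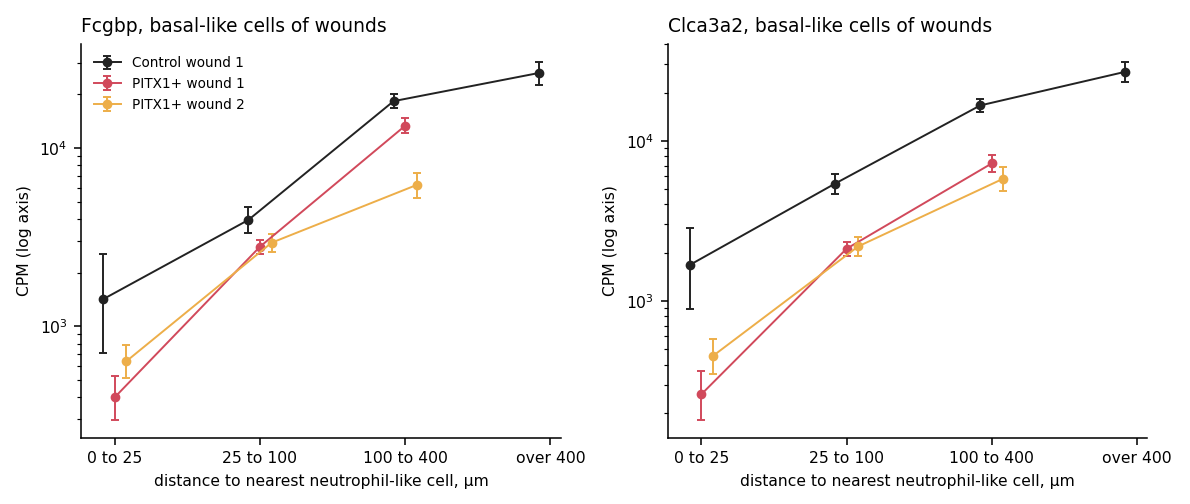
Level of each member in basal-like cells of the 3 wounds as CPM on a log axis, by the distance to the nearest neutrophil-like cell in µm, with exact 95% intervals for counting error as bars. Both members rise with distance in every wound, Fcgbp from 1418 to 26392 CPM in the Control wound, whose farthest bin has no counterpart in the PITX1+ wounds.

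Sebaceous-like cells of the wounds kept Clca3a2 at 7895, 5688 and 6229 CPM, while their Fcgbp stood at 1407, 298 and 514 CPM. Upper follicle cluster 45 held Clca3a2 at 10793, 7699 and 6727 CPM and Fcgbp at 22391, 3059 and 3770 CPM. The sections taken as PITX1+ wounds were thus below the other for both members in both kinds of cell.

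In Buccal 6 nearly all Fcgbp lay in salivary-like cells. These 2598 cells, led by Krt8, Krt18 and Wfdc18, held 5905 Fcgbp transcripts (19573 CPM), 97.8% of all Fcgbp of that section, and 3 transcripts of Clca3a2. The 146 and 65 salivary-like cells of Buccal 4 and Buccal 2 held no Fcgbp, which allows at most 3 transcripts in each, and differed in Krt7, a duct keratin, at 61334 and 126635 CPM against 3315 CPM in Buccal 6. Within Buccal 6, Fcgbp was counted in all but 678 of the cells (26.1%), and 51 cells (1.96%) held 10 or more transcripts and with them 10.2% of the total. In these gland cells Fcgbp was thus counted almost without Clca3a2, and in the lymphatic-marked cluster of the same section Clca3a2 (26 transcripts) almost without Fcgbp (2).

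The genes whose levels ran most like the members were sought over 69 profiles of keratinocyte-like kinds in 16 sections, as correlations of log2(CPM + 10), with no test since the profiles share sections. The profiles include the skin and buccal basal-like cells on which both members were chosen. The likeness of the members to each other thus follows in part from that choice and is no separate result. For Fcgbp these were Cd7 (Pearson r 0.836), Krt77 (0.798) and Kcna1 (0.789), with Clca3a2 next (0.761). By rank correlation Clca3a2 was above these 3 (Spearman rho 0.855 against 0.796, 0.793 and 0.751), so the order depends on the measure. For Clca3a2 they were Krt77 (0.844), Ccl19 (0.774) and Fcgbp (0.761). Cd7, Kcna1 and Ccl19 had median levels of 65.7, 27.7 and 86.5 CPM over the profiles, so few transcripts stand behind each of them.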

How the data were processed

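Xenium in situ data of 4 slides were used. For each slide the authors deposited the table of decoded transcripts, with position, quality score (a score per transcript), nucleus mark and cell, and a table of cells with raw transcript counts, without normalization. The aligner does not apply to such data, and the segmentation settings and software version are not given in the sources used here. Only panel transcripts scored 20 or higher entered, and summed by cell they equalled the deposited counts in 100% of cells.

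Sections were separated by joining cells within 100 µm (200 µm on the wound slide), keeping groups of at least 2000 cells, and unwounded sections took their condition from their order on the slide, which was set against the cell numbers the study lists, and wounds from that order. Cells with at least 10 transcripts (426404 in 17 sections) were clustered by k-means with 45 clusters on 40 principal components (scikit-learn 1.9.0), without 3 genes (Fcgbp, Clca3a2 and Pitx1), and named from marker lists, with at least 3 markers needed, by the ending -like. No doublets were removed, and classes with fewer than 50 cells in a section gave no value.

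CPM is the count of a gene per 1000000 panel transcripts of the same cells. Counts were summed per section and class and compared by the quasi-likelihood test of edgeR 4.0.16 under R 4.3.3, after filterByExpr and TMM scaling, with the slide as a covariate for skin and Benjamini-Hochberg adjustment over all genes tested. DESeq2 1.42.0 was an alternative. The fits were also run on simulated counts with the same spread for all genes and no slide effect. That run cannot show how the fits perform where slides differ as they did here. Shares over the nucleus were compared by two-sided exact permutation over sections with scipy 1.17.1 (Python 3.11.15, pandas 2.3.3, pyarrow 21.0.0, numpy 2.4.6). Sections held 136365 to 5581930 transcripts, and the basal-like cells of unwounded skin 416 to 10151 of Fcgbp and 273 to 1801 of Clca3a2, both fewest in matched PITX1+ 3. Intervals are 95% exact and cover counting error only, and a count of 0 allows up to 3 counts.

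Named are the 2 members, Pitx1, for each member the 3 genes most like it, and genes of 2 lists, of which those past the threshold are counted and the largest change in each direction is named. The members and lists were chosen with earlier results of these data known. The other alternatives were plain library sizes, all genes kept, transcripts of any quality or over the nucleus, at least 20 transcripts a cell, 30 and 60 clusters, no slide covariate, no thinning, and each section left out in turn. Single clusters, and the leaving out of sections in the further classes, were added after the data were seen. Cell and nucleus outlines, buccal animals' sex and the wounds' pairing were not analysed here. Some leading genes of clusters and the bases before the start of Clca3a2 are not reported here.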

Additional observations from a re-analysis of the deposited data

Results flagged for a closer look

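Of 30 groups of 4 to 7 sections tested for a section far from the others, 6 had one. The rule flags about 1 in 20 groups where values are normally distributed, which was not tested for these CPM values. Where every other section is at 0, a single transcript is always flagged, so the 6 cannot be read against that rate. Over all cells of the buccal sections, Buccal 6 had the highest Fcgbp, at 9796 CPM against 428 CPM in the next section, which are the counts of its salivary-like cells. In lymphatic-marked cluster 9 the same section was also highest for Fcgbp, at 543.8 CPM from 2 transcripts against 17.2 CPM. Over all cells Buccal 3, which held no basal-like cell, was highest for Clca3a2, at 336 CPM against 83.6 CPM. In cluster 45 of matched PITX1+ skin, matched PITX1+ 3 was lowest for Clca3a2, at 1404 CPM against 5765 CPM in the next section. In buccal cells of cluster 4 Buccal 2 was highest for Clca3a2, at 167.7 CPM against 0, and in cluster 5 Buccal 4, at 5.12 CPM against 0, each from 1 transcript.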

How the results depend on the processing

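Of 98 values computed under other settings than leaving out a section, 82 kept their direction and side of the threshold or count, 4 fell below it, 2 rose past it, 10 moved and 0 turned, and the causes were not tested. The 98 include the buccal against Control fits in basal-like cells. The members were chosen on that contrast, so their direction there was fixed in advance. A value that passed in neither setting also counts as kept, so the 82 do not measure support for a change. In basal-like cells Fcgbp passed with DESeq2 (−1.57) and with 30 clusters (−1.05), and the 30 genes past 0.05 became 81 with DESeq2, 46 with transcripts of any quality, 2 with 60 clusters and 8 without the slide. In follicle-like cells Fcgbp (−2.86) and Clca3a2 (−1.77) lost their calls without the slide, and Clca3a2 also with 30 clusters (−1.05, adjusted p = 0.0818 by edgeR) and in cluster 45 (−0.69). The 70 genes past 0.05 became 112 with DESeq2, 4 without the slide and 34 in cluster 45, and the 3 genes of the interaction became 5 in cluster 4. Without thinning, the mean share of buccal basal-like cells with Fcgbp was 4.83% and of matched PITX1+ ones with Clca3a2 21.4%.

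With each section left out in turn, log2 changes of Fcgbp and Clca3a2 and counts of genes past 0.05 ranged as follows. For basal-like cells these were −1.87 to −0.57, −1.59 to −0.70 and 11 (without matched PITX1+ 1) to 67 (without matched PITX1+ 4). For follicle-like cells they were −3.09 to −2.27, −1.62 to −1.14 and 33 to 80. Suprabasal-like cells gave −1.22 to −0.31, −0.74 to −0.27 and 0 to 75 (edgeR called 0 without Control 1, Control 2 or matched PITX1+ 1, and 75 without Control 3). Sebaceous-like cells gave −1.50 to −1.07, −0.12 to 0.33 and 2 to 31, and Clca3a2 turned to −0.01 without Control 1, −0.08 without matched PITX1+ 1 and −0.12 without matched PITX1+ 4. Cluster 4 gave −0.91 to 0.14 (Fcgbp turned to 0.14 without Control 3), −0.71 to −0.04 and 0 to 83 (0 in edgeR without Control 1 or Control 2, 83 without Control 3). Cluster 45 gave −2.18 to −1.82, −1.17 to −0.41 and 12 to 70. The slides differed by −3.49 to −2.003, −1.39 to −0.42 and 44 to 120, and the interaction by −3.52 to −1.46, −2.81 to −0.41 and 1 to 53. Nuclear shares differed by −5.99 to −2.99 percentage points for Fcgbp and −2.11 to 0.747 for Clca3a2, which turned without Control 1 (0.383), Control 2 (0.747) or matched PITX1+ 1 (0.488). Cluster 4, cluster 45 and the sections left out in further classes were chosen after seeing the data.

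The planned gate on single cells left 1 to 33 cells a section and gave no value. No paired analysis was possible because each slide is 1 labelled sample and the replicate numbers pair no sections. Among the basal-like cells of unwounded skin, those of Control 3 were the shallowest, with 1110 cells at a median of 21 transcripts.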
